A study of Mus musculus with 12 samples.

Results

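Paneth cell antimicrobial and granule genes were followed by bulk RNA-seq in organoids grown from mouse small intestine. They were 10 genes, taken as the entries with those symbols out of 55335 in each deposited count table: Lyz1, Defa17, Defa24, Defa29, Defa30, Mptx2, Ang4, Itln1, Habp2 and Mmp7. All 10 had counts in every library and passed the filter on low counts in both comparisons.

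Paneth cells sit at the base of the small intestinal crypt between the stem cells and secrete granules rich in antimicrobial proteins. Lysozyme cleaves bacterial cell walls, and alpha-defensins, called cryptdins in the mouse, disrupt bacterial membranes. In the mouse, matrilysin, the product of Mmp7, cuts the pro-segment from alpha-defensins and so turns them into active peptides.

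RNA was measured in 12 libraries, 3 in each of 4 groups, all sampled at day 6 from organoids of a single female mouse whose Lgr5 locus carries a GFP and diphtheria toxin receptor cassette (line26 wild type, Lgr5GFPDTR/+). The labels number the replicates of each group as experiments 1 to 3, not as animals, so p-values measure only the spread between these libraries, which may be technical. The RANKL organoids were kept for 3 days with the GSK3 inhibitor CHIR99021 (3 µM) plus the histone deacetylase inhibitor valproic acid (1.5 mM), then 1 day in ENR, and were then given RANKL, the cytokine that induces M cells, at 100 ng/mL for 6 days. The ENR control organoids grew in ENR, a medium with EGF, Noggin and R-spondin1. Their column names begin with CVENR, which no label spells out, so whether they too had the CHIR99021 and valproic acid step is not stated. The RANKL+CSRM617 organoids were treated like the RANKL ones with 40 µM CSRM617, a small-molecule inhibitor of the transcription factor ONECUT2, added to RANKL. Their comparison group, RANKL II, was a separate set of RANKL organoids with 3 libraries. No library served in both comparisons.

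Totals per library ran between 6351155 and 7719157 counts in RANKL, 5795541 and 7577492 in ENR control, 10225102 and 14041947 in RANKL+CSRM617, and 8669153 and 11241811 in RANKL II. The loci Gm26917 and Gm42418, which collect ribosomal RNA reads, took 9.71% to 10.7% of counts in RANKL against 21.9% to 35.5% in ENR control, and 15.3% to 15.8% in RANKL+CSRM617 against 6.44% to 6.71% in RANKL II. Mitochondrial genes took 2.52% to 2.89% of counts in RANKL against 5.43% to 7.96% in ENR control, and 8.61% to 11.0% in RANKL+CSRM617 against 6.04% to 6.11% in RANKL II. The part of both shares in the results was not tested. The second table held some very similar replicates. Without those loci and mitochondrial genes, the squared difference between paired libraries averaged 1.09 to 2.32 times the counting noise in RANKL+CSRM617 and 1.08 to 1.23 times in RANKL II, where 1 is counting noise alone. Replicates 1 and 2 of RANKL+CSRM617, at 1.09, and all 3 pairs of RANKL II differed by little more than counting noise, and whether they are repeats of 1 sample cannot be told from these values. In the first table it averaged 1.91 to 4.30 times in RANKL and 1.73 to 7.33 times in ENR control. Markers of other cells that an epithelial culture should lack were low. The summed level of 6 immune markers was 4.41 to 6.09 CPM, counts scaled to a common library total by TMM, in RANKL against 5.06 to 6.86 in ENR control, and 10.6 to 11.1 CPM in RANKL+CSRM617 against 5.80 to 7.93 in RANKL II. That of 5 stromal and endothelial markers was 1.35 to 2.26 CPM against 2.74 to 3.20, and 1.30 to 1.62 CPM against 1.04 to 1.36, in the same pairs of groups. Col1a2 and Col3a1 had no count in any library, and Cd79a and Itgax had none in the RANKL and ENR control libraries.

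In RANKL organoids 9 of the 10 genes fell and 1, Mmp7, rose against ENR control (edgeR, adjusted p under 0.05). Over all 13570 genes tested in this comparison 56.7% were called, 28% lower and 28.7% higher. The median log2 fold change of the 10 genes was -2.35, beside 0.003 over all genes. In bulk RNA a smaller number of Paneth cells and less of these transcripts per Paneth cell cannot be told apart.

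**Figure D1:**
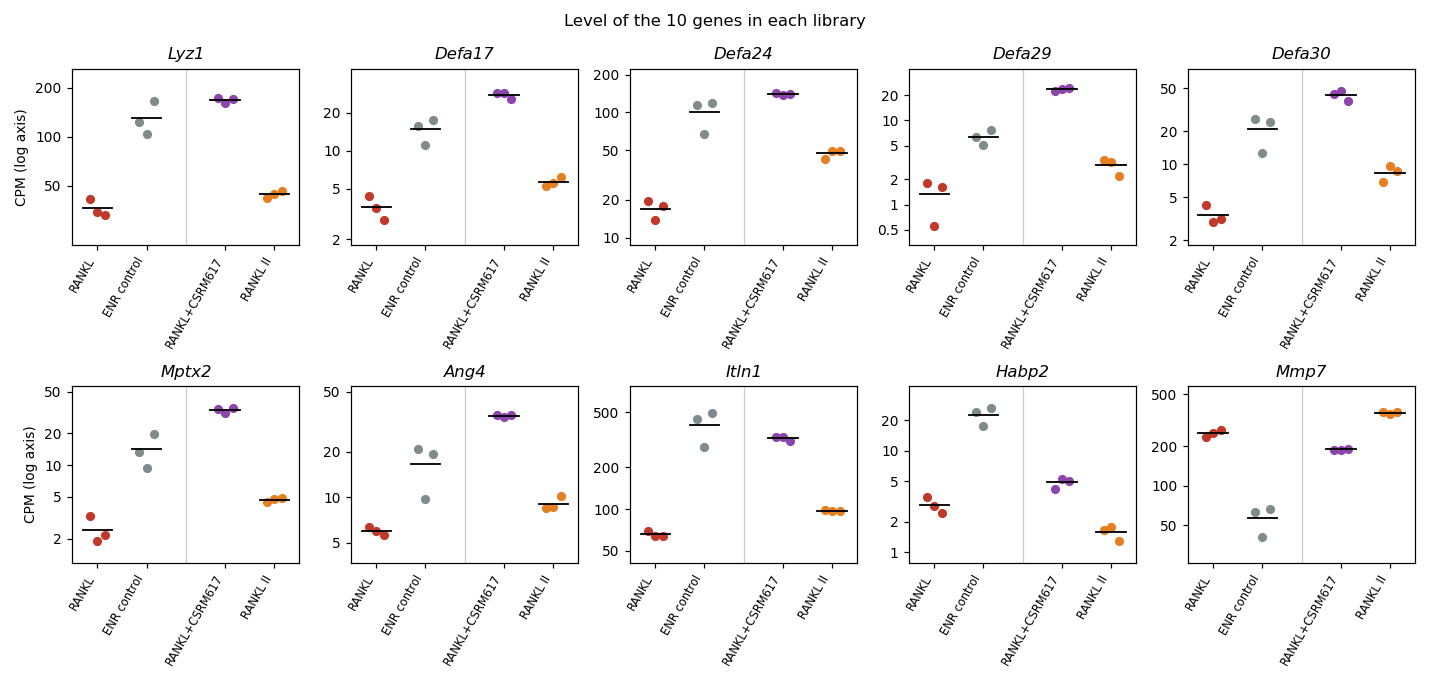
Level of each of the 10 genes in every library, in CPM after TMM scaling on a log axis. Each point is 1 library and the line is the mean of 3. The grey line separates the 2 tables, which were scaled separately. In RANKL organoids 9 genes sit below ENR control and Mmp7 above it, and in RANKL+CSRM617 organoids 9 genes sit above RANKL II and Mmp7 below it.

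Lyz1 encodes the lysozyme of Paneth cell granules (ENSMUSG00000069515.6, chr10:117287797-117292868, minus strand, GRCm38, 4 exons). It was measured at 41.5, 34.2 and 32.9 CPM in the 3 RANKL libraries, against 123.5, 103.7 and 166.8 CPM in the ENR control libraries. The groups did not overlap, and ENR control replicate 3 was the highest. The mean was 36.2 ± 4.64 CPM in RANKL and 131.3 ± 32.3 CPM in ENR control (SD, n = 3 each). Lyz1 fell by 1.84 on the log2 scale (SE 0.155, edgeR adjusted p = 4.38e-07), a level 3.59-fold lower. Of the 42-base windows of its transcript, the read length used, 22.3% also occur in Lyz2, the lysozyme gene of macrophages, which had at most 2 counts in any library.

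The 4 alpha-defensins lie together on chromosome 8 and share much of their sequence, which limits how far short reads can separate them. The first 60 coding bases, which open the signal peptide, show this. They are printed 5′ to 3′ from the GENCODE transcripts of GRCm38, with capitals at the positions where the 4 genes are not all alike and a gene differs from the commonest base, both bases being in capitals where they tie. They lie at chr8:21655801-21655860 (plus strand, Defa17), chr8:21734537-21734596 (plus, Defa24), chr8:21326916-21326975 (minus, Defa29) and chr8:21134663-21134722 (plus, Defa30).
Defa17: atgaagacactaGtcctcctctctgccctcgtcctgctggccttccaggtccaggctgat
Defa24: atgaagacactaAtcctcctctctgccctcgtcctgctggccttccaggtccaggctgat
Defa29: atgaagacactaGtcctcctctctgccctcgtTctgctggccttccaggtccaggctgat
Defa30: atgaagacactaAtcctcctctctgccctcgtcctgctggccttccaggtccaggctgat

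Between 96.7% and 100% of these bases were identical in each pair. The other end of the coding sequence holds the mature peptide, and there Defa29 stands apart. The stretches below run from coding base 175 through the stop codon, with the in-frame cysteine codons in capitals. They lie at chr8:21656534-21656641 (plus strand, Defa17), chr8:21735270-21735377 (plus, Defa24), chr8:21325999-21326175 (minus, Defa29) and chr8:21135396-21135503 (plus, Defa30).
Defa17: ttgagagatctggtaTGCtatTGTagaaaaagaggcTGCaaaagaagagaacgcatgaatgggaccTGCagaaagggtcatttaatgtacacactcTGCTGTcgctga
Defa24: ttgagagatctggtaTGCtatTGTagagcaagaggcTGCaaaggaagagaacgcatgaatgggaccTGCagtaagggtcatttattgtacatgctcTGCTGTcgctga
Defa29: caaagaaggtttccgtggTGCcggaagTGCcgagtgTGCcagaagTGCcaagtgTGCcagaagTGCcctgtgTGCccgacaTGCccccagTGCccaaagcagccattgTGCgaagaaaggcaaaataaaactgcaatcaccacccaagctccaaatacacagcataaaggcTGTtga
Defa30: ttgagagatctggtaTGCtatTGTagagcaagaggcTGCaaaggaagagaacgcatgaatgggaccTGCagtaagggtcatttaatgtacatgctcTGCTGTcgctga

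Defa17, Defa24 and Defa30 carry 6 cysteine codons in 108 bases, the number from which alpha-defensins form their disulfide bonds. Defa29 carries 11 in 177 bases. Over the last 60 coding bases Defa29 was identical to the other genes at 28.3% to 30.0% of positions, while the other genes were identical to each other at 93.3% to 98.3%. Of the 42-base windows of each transcript, 92.1% for Defa17, mostly in Defa3, 60.2% for Defa30, 54.2% for Defa29 and 36.8% for Defa24 occur in other genes too. No source used here says how the authors counted reads that match more than 1 place, so the levels of the single defensins, Defa17 above all, are uncertain.

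All 4 alpha-defensins were lower in RANKL organoids. Defa24 (chr8:21734494-21735471) was measured at 19.5, 13.8 and 17.9 CPM in RANKL libraries, against 114.8, 67.6 and 119.7 CPM in ENR control libraries. It fell by 2.54 (log2, SE 0.230, edgeR adjusted p = 1.06e-05). The groups did not overlap, and ENR control replicate 2 stood well below the other controls.

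Defa30 (chr8:21134642-21135598) was measured at 4.26, 2.94 and 3.12 CPM in RANKL libraries, against 25.9, 12.7 and 24.5 CPM in ENR control libraries, and fell by 2.56 (SE 0.275, edgeR adjusted p = 2.79e-06). Defa17 (chr8:21655780-21656735) was measured at 4.38, 3.50 and 2.84 CPM in RANKL libraries, against 15.7, 11.2 and 17.4 CPM in ENR control libraries, and fell by 1.996 (SE 0.217, edgeR adjusted p = 1.28e-06). Neither gene overlapped between the groups. Defa29 (chr8:21325887-21327020), the least abundant of the 4 per length in this table, was measured at 1.796, 0.565 and 1.62 CPM in RANKL libraries, from 16, 5 and 12 counts, against 6.34, 5.06 and 7.77 CPM in ENR control libraries, from 33, 38 and 34 counts. It fell by 2.23 (SE 0.330, edgeR adjusted p = 3.06e-05), and RANKL replicate 2 was the lowest library.

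The symbols beginning with Defa numbered 39, of which 15 had counts and 24 had none in each of the 2 tables. Of the 5 entries that passed the filter in this comparison, all 5 fell, with a median log2 fold change of -2.52. The entry beyond the 4 listed genes was Defa35, with 6, 8 and 3 counts in RANKL libraries against 41, 11 and 14 in ENR control libraries. Its log2 fold change was -2.52 (SE 0.626, edgeR adjusted p = 0.00411), or -1.64 (adjusted p = 0.0128) without ENR control replicate 1, the library with 41 counts. Defa35 passed the filter only through the ENR control libraries, where it was higher, so its fall adds no support to the count of 5. Defa29 too would not have passed on its RANKL libraries alone. The summed level of all Defa entries was 22.6 to 31.1 CPM in RANKL libraries and 100.9 to 178.7 CPM in ENR control libraries.

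The lectins and lectin-like genes fell as well. Itln1 encodes intelectin-1, a secreted lectin that binds sugars of microbial surfaces (chr1:171518122-171535294, minus strand). It was measured at 69.4, 64.2 and 63.9 CPM in RANKL libraries, against 446.2, 281.9 and 493.6 CPM in ENR control libraries. Itln1 fell by 2.62 (SE 0.187, edgeR adjusted p = 1.49e-06), a level 6.16-fold lower, and the RANKL libraries were nearly equal to each other. Mptx2 encodes a mucosal pentraxin and is a marker of mouse Paneth cells (chr1:173274382-173277777, minus strand). It was measured at 3.25, 1.92 and 2.17 CPM in RANKL libraries, against 13.2, 9.33 and 19.9 CPM in ENR control libraries, with no overlap, and fell by 2.46 (SE 0.289, edgeR adjusted p = 2.89e-06). Of its 42-base windows 21.0% occur in its neighbour Mptx1, whose log2 fold change was -0.05 (edgeR adjusted p = 0.914; Mptx1 was named after its values were seen).

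Habp2, which encodes a secreted serine protease that binds hyaluronan (chr19:56287137-56320822, plus strand), was measured at 3.48, 2.83 and 2.44 CPM in RANKL libraries, against 24.2, 17.7 and 26.5 CPM in ENR control libraries. It fell by 2.92 (SE 0.204, edgeR adjusted p = 7.77e-09), a level 7.59-fold lower and the largest fall of the 10 in this fit, though with limma on the deposited log2 values it was -1.97, a smaller fall than those of Itln1 (-2.37) and Defa24 (-2.18). Its exons overlap those of Nrap on the opposite strand over 1128 bases, and since no source used here gives the strand setting of the counting, reads from that stretch cannot be told apart. Nrap had 36 counts over the RANKL libraries and 53 over the ENR control libraries, while Habp2 had 74 and 375. Ang4 encodes angiogenin 4, a secreted ribonuclease of mouse Paneth cells that kills bacteria (chr14:51763878-51773590, minus strand). It was measured at 6.40, 5.99 and 5.69 CPM in RANKL libraries, against 20.9, 9.73 and 19.4 CPM in ENR control libraries, and fell by 1.42 (SE 0.247, edgeR adjusted p = 0.000186). ENR control replicate 2 came closest to the RANKL libraries, without overlap. That library was the lowest control for each of the 10 genes and had the smallest share of ribosomal RNA loci, 21.9%, and the part of that share was not tested.

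Mmp7, the alpha-defensin processing enzyme, moved the other way (chr9:7692090-7699585, plus strand, 6 exons). It was measured at 236.6, 251.4 and 265.7 CPM in RANKL libraries, against 63.7, 40.6 and 67.2 CPM in ENR control libraries. The RANKL libraries lay close together and far above every control. The mean was 251.2 ± 14.5 CPM in RANKL and 57.2 ± 14.4 CPM in ENR control, and Mmp7 rose by 2.16 (SE 0.143, edgeR adjusted p = 1.88e-08), a level 4.46-fold higher. The transcript AV064505, which overlaps 123 exonic bases on the opposite strand, had 6 counts over the RANKL libraries and 0 over the ENR control libraries, while Mmp7 had 6294 and 931.

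None of the 10 genes overlapped between RANKL and ENR control libraries; over all genes tested, 31.2% lay wholly lower and 32.2% wholly higher. On the authors' deposited log2 values the changes of the low genes were smaller with limma, -0.995 for Defa29, -1.29 for Defa17 -1.48 for Mptx2 and -0.78 for Defa35, and stayed called. Log2 fold changes fell with transcript GC content across genes (Spearman -0.309 over 13407 genes, which are not independent), and with per-library offsets for GC content the 9 falls lay between -2.76 (Habp2) and -1.48 (Ang4) and Mmp7 rose by 2.15.

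**Figure D2:**
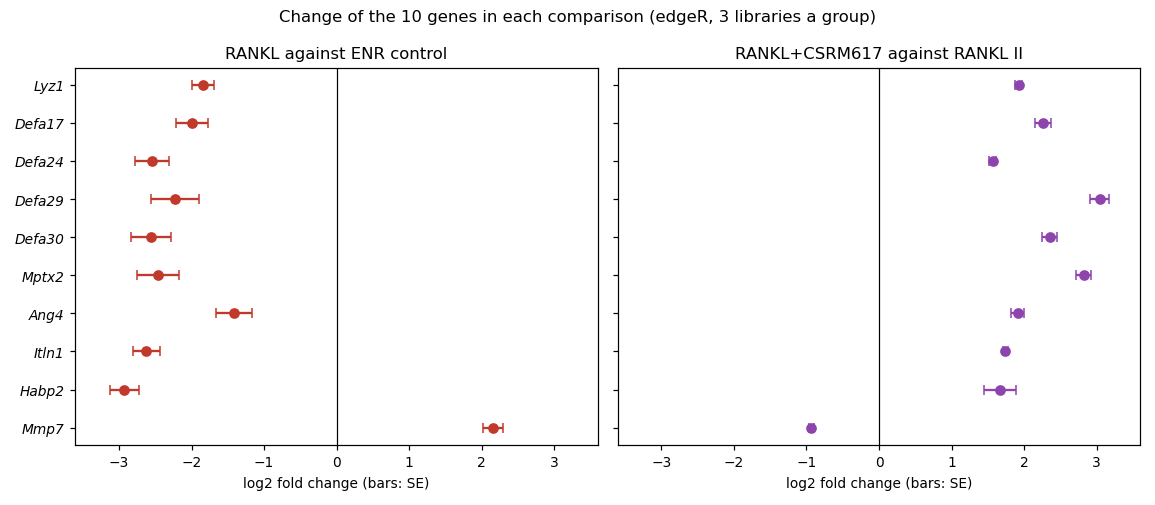
Log2 fold change of the 10 genes in each comparison, RANKL over ENR control on the left and RANKL+CSRM617 over RANKL II on the right, fitted with edgeR. Points are estimates and bars are SE. In these fits Habp2 lies lowest on the left (-2.92) and Defa29 highest on the right (3.04), and Mmp7 is the exception on both sides (2.16 and -0.93).

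The second comparison asked what CSRM617 changed in organoids that all received RANKL. There 9 of the 10 genes rose and Mmp7 fell in RANKL+CSRM617 organoids against RANKL II. Over the 14167 genes tested 71.4% were called, 35.2% higher and 36.2% lower, so a call by itself was the usual outcome for a gene here. The median log2 fold change of the 10 genes was 1.92, beside -0.016 over all genes.

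Lyz1 was measured at 173.1, 160.6 and 171.0 CPM in RANKL+CSRM617 libraries, against 42.1, 44.3 and 46.1 CPM in RANKL II libraries. The mean was 168.2 ± 6.70 CPM in RANKL+CSRM617 and 44.2 ± 2.04 CPM in RANKL II. Lyz1 rose by 1.92 (SE 0.0463, edgeR adjusted p = 2.58e-33), a level 3.79-fold higher. The groups did not overlap. The spread behind this SE and p, and behind those of the other genes in this comparison, comes in part from the libraries that may be repeats of 1 sample. With replicates 1 and 2 of each group summed to 1 library, a setting added after seeing the data, Lyz1 rose by 1.93 (SE 0.0529, edgeR adjusted p = 1.19e-20).

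The 4 alpha-defensins rose by unlike amounts. Defa29 was measured at 22.3, 23.9 and 24.4 CPM in RANKL+CSRM617 libraries, against 3.42, 3.19 and 2.16 CPM in RANKL II libraries. It rose by 3.04 (SE 0.132, edgeR adjusted p = 4.16e-24), 8.24-fold, and by 1.90 with limma on the deposited log2 values. Defa24 was measured at 142.7, 138.8 and 139.5 CPM in RANKL+CSRM617 libraries, against 42.5, 49.4 and 49.6 CPM in RANKL II libraries, and rose by 1.57 (SE 0.0484, edgeR adjusted p = 1.69e-29), 2.96-fold. Of the 4 alpha-defensins Defa29 thus had the highest value and Defa24 the lowest, also with GC offsets (2.99 and 1.55) and with limma (1.90 and 1.47).

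Defa30 was measured at 44.4, 46.9 and 38.1 CPM in RANKL+CSRM617 libraries, against 6.84, 9.69 and 8.65 CPM in RANKL II libraries, and rose by 2.35 (SE 0.0999, edgeR adjusted p = 4.2e-21). Defa17 was measured at 28.4, 28.3 and 25.6 CPM in RANKL+CSRM617 libraries, against 5.28, 5.56 and 6.17 CPM in RANKL II libraries, and rose by 2.26 (SE 0.106, edgeR adjusted p = 7.08e-23). Of the Defa entries 6 passed the filter in this comparison and all 6 rose, with a median of 2.31. The entries beyond the listed genes were Defa35, which rose by 2.21 (SE 0.188, edgeR adjusted p = 3.82e-14) on 277 counts in RANKL+CSRM617 against 56 in RANKL II, and Defa26, which rose by 2.69 (SE 0.462, edgeR adjusted p = 1.22e-06) on 50 counts against 7. With limma on the deposited log2 values Defa35 rose by 0.98 and Defa26 by 0.32. Defa26, with 18, 17 and 15 counts in RANKL+CSRM617 libraries against 3, 2 and 2 in RANKL II, passed the filter only through RANKL+CSRM617. Its rise therefore adds no support to the count of 6 or to their median. The summed level of all Defa entries was 241.4 to 252.1 CPM in RANKL+CSRM617 libraries and 61.1 to 71.1 CPM in RANKL II libraries.

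Mptx2 was measured at 34.2, 31.5 and 34.5 CPM in RANKL+CSRM617 libraries, against 4.46, 4.74 and 4.88 CPM in RANKL II libraries. It rose by 2.82 (SE 0.105, edgeR adjusted p = 1.41e-26), 7.07-fold. Its neighbour Mptx1 had few reads, with 7 counts over the RANKL+CSRM617 libraries and 40 over the RANKL II libraries, and fell by 2.54 (SE 0.494, edgeR adjusted p = 1.01e-05), or by 0.26 with limma. Mptx1 passed the filter only through RANKL II, where it was higher, so its fall adds no support for an opposite change. Itln1 was measured at 332.4, 332.7 and 312.2 CPM in RANKL+CSRM617 libraries, against 99.4, 96.5 and 96.3 CPM in RANKL II libraries, and rose by 1.74 (SE 0.0358, edgeR adjusted p = 5.8e-36), 3.34-fold.

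Ang4 was measured at 34.8, 34.0 and 35.3 CPM in RANKL+CSRM617 libraries, against 8.50, 8.65 and 10.2 CPM in RANKL II libraries, and rose by 1.92 (SE 0.0895, edgeR adjusted p = 5.93e-23). Habp2 was the least abundant of the 10 genes in this table, with 4.22, 5.29 and 5.08 CPM in RANKL+CSRM617 libraries, against 1.66, 1.75 and 1.28 CPM in RANKL II libraries. Habp2 rose by 1.67 (SE 0.218, edgeR adjusted p = 5.13e-09), and by 0.59 with limma on the deposited log2 values. Its antisense neighbour Nrap had 172 counts in RANKL+CSRM617 and 106 in RANKL II, against 167 and 49 for Habp2, so the overlap of their exons weighs more here than in the first comparison.

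Mmp7 was measured at 188.0, 189.2 and 191.3 CPM in RANKL+CSRM617 libraries, against 366.3, 354.3 and 365.5 CPM in RANKL II libraries. It fell by 0.93 (SE 0.0308, edgeR adjusted p = 1.77e-28), a level 1.91-fold lower, with no overlap. None of the 10 genes overlapped between RANKL+CSRM617 and RANKL II libraries, where 36.1% of all genes lay wholly higher and 37% wholly lower. Log2 fold changes rose with transcript GC content across the genes of this comparison (Spearman 0.56 over 13989 genes, which are not independent). With per-library offsets for GC content the rises of the 9 genes were between 1.47 (Habp2) and 3.29 (Mptx2), and Mmp7 fell by 0.83.

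Dividing each gene by Lyz1 in the same library shows its change relative to that of Lyz1. The ratios carry no GC offsets, and the share of all genes whose ratio did not overlap was not computed. Lack of overlap says less in the second table, where some replicates may be repeats of 1 sample. On this scale Mmp7 stood at a mean log2 ratio of 2.80 in RANKL and -1.21 in ENR control, a difference of 4.005, and at 0.17 in RANKL+CSRM617 and 3.04 in RANKL II, a difference of -2.86. No other gene came near differences of that size. In RANKL organoids the ratios of Defa24 (difference -0.69), Defa30 (-0.72), Mptx2 (-0.66), Itln1 (-0.75) and Habp2 (-1.13) were lower than in ENR control without overlap, so these genes fell further than Lyz1. The ratios of Defa17, Defa29 and Ang4 overlapped between RANKL and ENR control. In RANKL+CSRM617 organoids the ratios of Defa29 (difference 1.11), Mptx2 (0.90), Defa30 (0.44) and Defa17 (0.35) were higher than in RANKL II without overlap, while those of Defa24 (-0.35) and Itln1 (-0.19) were lower without overlap. Ang4 kept the same ratio to Lyz1, -2.28 ± 0.0357 in RANKL+CSRM617 and -2.28 ± 0.0902 in RANKL II (SD, n = 3 each), and the ratios of Habp2 overlapped.

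**Figure D3:**
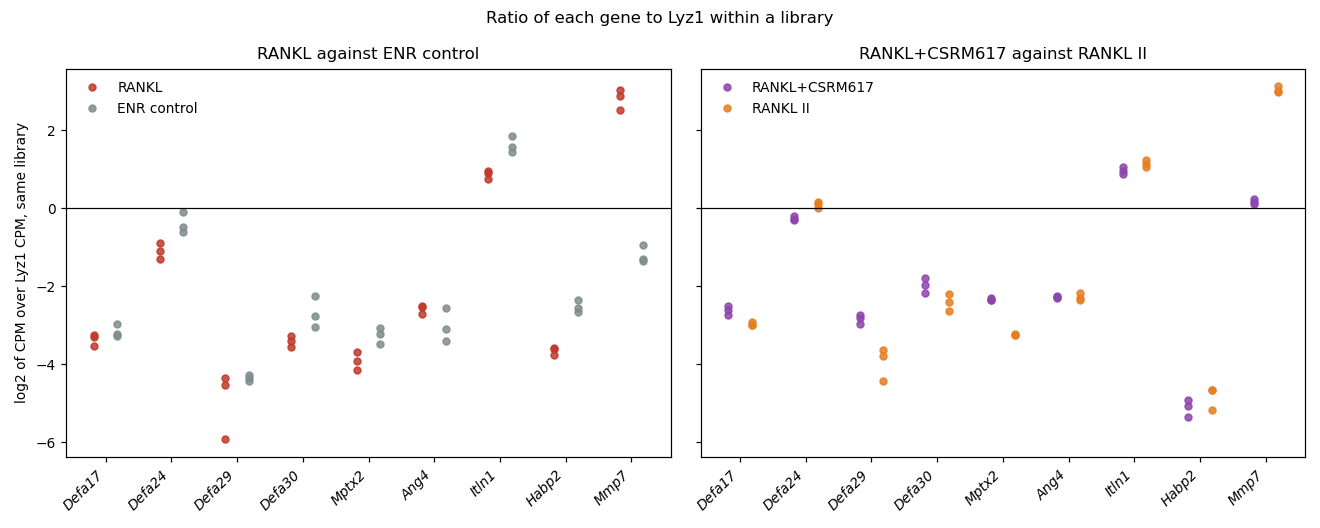
Log2 ratio of each gene's CPM to the CPM of Lyz1 in the same library, for RANKL and ENR control on the left and RANKL+CSRM617 and RANKL II on the right. Each point is 1 library. Mmp7 differs most in both panels (mean 2.80 in RANKL and -1.21 in ENR control, 0.17 in RANKL+CSRM617 and 3.04 in RANKL II), and Ang4 in RANKL+CSRM617 and RANKL II lies at the same ratio, -2.28.

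Levels of different genes were compared as CPM per kilobase of exon, within a group. In RANKL organoids the order began with Mmp7 at 235.2 ± 13.6, Itln1 at 57.7 ± 2.69, Defa24 at 40.7 ± 7.05 and Lyz1 at 28.7 ± 3.67 CPM per kilobase, none of which overlapped its neighbour. In ENR control organoids it began with Itln1 at 356.9 ± 97.4 and Defa24 at 240.3 ± 68.7, which overlapped each other, and then Lyz1 at 104.0 ± 25.6 and Mmp7 at 53.6 ± 13.5. From Mmp7 down through Defa30, Defa17, Ang4, Mptx2 and Defa29 each gene overlapped the next in ENR control. In RANKL+CSRM617 organoids the leading genes were Defa24 at 334.8 ± 5.00, Itln1 at 285.5 ± 10.3, Mmp7 at 177.4 ± 1.57 and Lyz1 at 133.2 ± 5.30 CPM per kilobase. In RANKL II organoids they were Mmp7 at 339.0 ± 6.27, Defa24 at 112.6 ± 9.68, Itln1 at 85.3 ± 1.50 and Lyz1 at 35.0 ± 1.61. Habp2 was last in every group.

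Mmp7 therefore made up very different shares of the summed per-kilobase level of the 10 genes. Its share was 55.2% to 61.8% in RANKL libraries against 5.75% to 6.05% in ENR control libraries, and 13.9% to 14.6% in RANKL+CSRM617 libraries against 52.4% to 55.3% in RANKL II libraries. The sum of the other 9 genes was 130.0 to 154.0 CPM in RANKL against 518.8 to 895.5 in ENR control, and 785.8 to 816.4 CPM in RANKL+CSRM617 against 214.1 to 225.4 in RANKL II.

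Genes that regulate the Paneth and secretory lineages were taken from a list of 19. In RANKL organoids 11 of the 19 fell, 2 rose and 6 were not called, with a median log2 fold change of -0.56, where 28% of all genes tested fell and 28.7% rose. Bhlha15, a transcription factor of mature secretory cells, fell by 2.11 (SE 0.199, edgeR adjusted p = 2.67e-07), to 3.88 ± 0.531 CPM in RANKL, against 17.2 ± 3.47 CPM in ENR control. Spdef, which drives goblet and Paneth maturation, fell by 2.05 (SE 0.212, adjusted p = 7.34e-07). Gfi1, which acts in secretory progenitors, fell by 1.70 (adjusted p = 0.000127), or by 0.67 with limma on the deposited log2 values, and Sox9, which Paneth cells need in order to form, by 0.94 (SE 0.0777, adjusted p = 5.85e-08). Gfi1, with 17, 9 and 9 counts in RANKL libraries, passed the filter only through ENR control, where it was higher. Its fall therefore adds no support to the count of 11. Xbp1, the factor that maintains the secretory apparatus of Paneth cells, fell by 0.79 (adjusted p = 9.17e-07).

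Hes1, a Notch target that represses the secretory fate, fell by 0.56 (adjusted p = 0.000229), though with GC offsets its value was -0.27 (adjusted p = 0.0862). Atoh1, the master factor of secretory fate, had a change of -0.64 (edgeR adjusted p = 0.0398) that lost its call with GC offsets, with DESeq2 and with 5 of the 6 libraries left out in turn, and was -0.37 without RANKL replicate 3. Foxa1, a factor of secretory cell differentiation, rose by 0.50 (adjusted p = 0.000108), or by 0.84 with GC offsets. Values for Tcf7l2, the Wnt pathway partner of beta-catenin, Neurog3, the endocrine lineage factor, and Foxa2 were 0.21 (adjusted p = 0.0588), 0.32 (adjusted p = 0.0794) and -0.22 (adjusted p = 0.182, or 0.07 with GC offsets). Tcf7l2 and Neurog3 were called higher with GC offsets, at 0.31 (adjusted p = 0.00372) and 0.59 (adjusted p = 0.00199). The other gene that rose was Nod2, a bacterial sensor, with a change of 1.89 (adjusted p = 1.41e-07), named after its values were seen.

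In RANKL+CSRM617 organoids 10 of the 19 rose, 1 fell and 8 were not called, with a median of 0.19, but with GC offsets 3 rose and 7 fell. Of all genes tested 71.4% were called, 35.2% higher and 36.2% lower, a larger share than among these 19. Tcf7l2 rose by 0.64 (SE 0.0305, edgeR adjusted p = 1.34e-22), to 361.6 ± 8.63 CPM in RANKL+CSRM617, against 232.4 ± 3.55 CPM in RANKL II, and by 0.55 with GC offsets. Bhlha15 had a change of 0.67 (adjusted p = 0.000489) and Spdef of 0.43 (adjusted p = 0.0176), and neither was called with GC offsets, at 0.34 (adjusted p = 0.066) and -0.04 (adjusted p = 0.86). Without RANKL II replicate 3 Spdef was not called either, at 0.27 (adjusted p = 0.181). Hes1 had a change of 0.30 (adjusted p = 1.69e-05) that reversed to -0.17 (adjusted p = 0.00582) with GC offsets.

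The remaining factors were not called. Sox9 had a log2 fold change of 0.04 (SE 0.0550, edgeR adjusted p = 0.485), Xbp1 of 0.003 (SE 0.0432, adjusted p = 0.95), Atoh1 of -0.22 (adjusted p = 0.337), Gfi1 of 0.34 (adjusted p = 0.337, or -0.05 with GC offsets), Foxa1 of -0.09 (adjusted p = 0.265), Foxa2 of -0.08 (adjusted p = 0.575) and Neurog3 of -0.03 (adjusted p = 0.916). With GC offsets Foxa1, at -0.58, and Foxa2, at -0.54, were called lower. Kcnn4, a potassium channel of Paneth cells named after its values were seen, fell by 1.42 in RANKL (adjusted p = 1.97e-09) and rose by 0.90 in RANKL+CSRM617 (adjusted p = 6.87e-15), or by 0.41 with GC offsets.

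**Figure D4:**
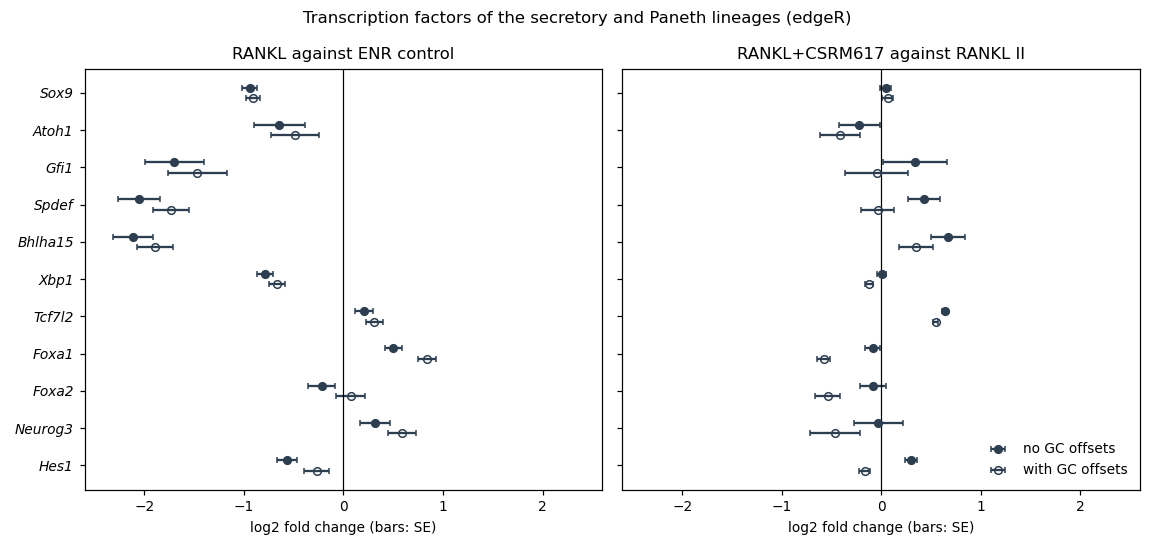
Log2 fold change of 11 transcription factors of the secretory and Paneth lineages, RANKL over ENR control on the left and RANKL+CSRM617 over RANKL II on the right. Filled points are the edgeR fit, open points the fit with GC offsets, and bars are SE. Spdef and Bhlha15 have the largest falls on the left (-2.05 and -2.11), while on the right Hes1, Spdef, Xbp1 and Gfi1 change sign with the GC offsets.

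Other secreted or surface genes of Paneth cells did not share 1 direction. Of 22 on the list, 19 were in the tables and 11 were tested. In RANKL organoids 5 rose, 4 fell and 2 were not called, with a median of -0.05, beside 28.7% higher and 28% lower over all genes. Guca2b, which encodes uroguanylin, rose by 4.13 (SE 0.133, edgeR adjusted p = 1.9e-12), Tnf, which encodes the cytokine TNF, by 2.29 (adjusted p = 3.39e-09), and Cd24a, a surface marker used to sort Paneth cells, by 1.63 (adjusted p = 1.77e-09). Pnliprp2, which encodes a lipase, fell by 2.44 (SE 0.139, adjusted p = 1.73e-09). In RANKL+CSRM617 organoids 5 also rose, 4 fell and 2 were not called, with a median of 0.15, beside 35.2% higher and 36.2% lower over all genes. Mptx1, among the 4 falls, passed the filter only through RANKL II, where it was higher, so its fall adds no support to that count. Cd24a fell by 1.03 (SE 0.0362, adjusted p = 2.96e-23), Kit, another surface marker of Paneth-type cells, by 1.08 (adjusted p = 3.95e-21) and Rnase1, a secreted ribonuclease, by 1.50 (adjusted p = 3.05e-18). Pnliprp2 rose by 0.91 (SE 0.0580, adjusted p = 3.09e-18). Kit and Rnase1 had risen in RANKL, by 1.09 (adjusted p = 9.69e-08) and 1.15 (adjusted p = 4.94e-06), so that Cd24a, Kit and Rnase1 had the same signs as Mmp7 in both comparisons. Pnliprp2 had the signs of the other 9 genes, and so had Clps, which encodes colipase (-1.69 and 1.33), and Pla2g2a, which encodes a secreted antibacterial phospholipase (-1.56 and 1.55), both named after their values were seen. Pla2g2a, with 7, 14 and 13 counts in RANKL II, passed the filter there only through RANKL+CSRM617, where it was higher. Its rise adds no support to the count of 5 rises or to this pattern. Guca2b and Tnf had neither pattern, since they also rose in RANKL+CSRM617. Their changes there were 0.40 (edgeR adjusted p = 1.31e-15) and 0.47 (edgeR adjusted p = 1.95e-05), or 0.12 and 0.31 with GC offsets.

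Paneth cells also feed the stem cell niche with Wnt3, Egf, Tgfa, Dll1 and Dll4, ligands of the Wnt, EGF receptor and Notch pathways. In RANKL organoids Tgfa rose by 0.76 (SE 0.104, edgeR adjusted p = 1.61e-05), and the other 4 were not called, though Dll1 was with GC offsets, at 0.34 (adjusted p = 0.00332). Over all genes tested 56.7% were called in RANKL and 71.4% in RANKL+CSRM617, larger shares than among these 5. In RANKL+CSRM617 organoids Dll1 rose by 0.82 (SE 0.0520, edgeR adjusted p = 2.33e-18), Dll4 by 0.73 (adjusted p = 1.02e-06) and Wnt3 by 0.87 (SE 0.260, adjusted p = 0.00267), and the other 2 were not called. With GC offsets Dll1 rose by 0.43 and Dll4 by 0.39, while Tgfa fell by 0.32 (adjusted p = 7.15e-06), and with DESeq2 the adjusted p of Wnt3 was 0.0502. With limma Wnt3 rose by 0.26.

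Markers of other epithelial cells moved with the same treatments. The summed level of 7 M cell markers was 783.4 to 829.8 CPM in RANKL libraries against 16.1 to 23.1 in ENR control libraries, and 789.5 to 814.2 CPM in RANKL+CSRM617 libraries against 842.3 to 859.3 in RANKL II libraries. All 7 rose in RANKL, while 3 rose and 4 fell in RANKL+CSRM617. Gp2 and Sox8 had 0 counts in ENR control libraries, so in RANKL they could only be called higher. Ccl20, with 11, 6 and 5 counts there, also passed the filter only through the RANKL libraries, where it was higher. The rises of Gp2, Sox8 and Ccl20 add no support to the count of 7. In the second comparison Gp2, with 7, 9 and 8 counts in RANKL+CSRM617, passed only through RANKL II. Its fall adds no support to the count of 4. Beside the M cell counts and the marker counts below, 28.7% of all genes tested rose and 28% fell in RANKL. In RANKL+CSRM617 35.2% rose and 36.2% fell. The summed level of 5 absorptive enterocyte markers was 2307 to 3229 CPM in RANKL against 784.0 to 925.8 in ENR control, and 8375 to 8684 CPM in RANKL+CSRM617 against 3389 to 3447 in RANKL II. Of these 5 markers 4 rose and 1, Fabp1, fell by 1.64 in RANKL, and all 5 rose in RANKL+CSRM617. The summed level of 7 goblet markers was 1958 to 2818 CPM in RANKL against 1114 to 1166 in ENR control, and 3795 to 3971 CPM in RANKL+CSRM617 against 2817 to 2896 in RANKL II. The sum was mostly Fcgbp, and of the 7 goblet markers 3 rose and 3 fell in RANKL, Muc2, Spink4 and Agr2 among the falls, and 4 rose and 3 fell in RANKL+CSRM617. That of 4 stem cell markers was 423.4 to 672.6 CPM in RANKL against 1524 to 1924 in ENR control, and 101.1 to 102.5 CPM in RANKL+CSRM617 against 82.7 to 86.4 in RANKL II. Of these 4 markers 1, Ascl2, rose by 1.21, 2 fell and 1 was not called in RANKL. In RANKL+CSRM617 2 rose, 1 fell and 1 was not called. Lgr5 fell in both comparisons, by 3.03 and 0.85. That of 5 enteroendocrine markers was 16.9 to 22.3 CPM in RANKL against 22.0 to 34.3 in ENR control, and 39.9 to 50.0 CPM in RANKL+CSRM617 against 16.7 to 18.2 in RANKL II. That of 3 tuft markers was 98.4 to 131.4 CPM in RANKL against 78.5 to 103.1 in ENR control, and 80.5 to 84.1 CPM in RANKL+CSRM617 against 52.3 to 57.3 in RANKL II. Their part in the changes of the granule genes was not tested.

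The genes whose pattern was most like that of Lyz1 were sought by Pearson correlation of log2 CPM, centred within each table, over the 12 libraries among 13262 genes. The group differences drive these values, so they are a description. The highest were Rbm19, a nucleolar RNA-binding protein (0.997), Mptx2 (0.997), Pcsk5, a proprotein convertase (0.996), Naip6, an inflammasome sensor (0.995), and Defa17 (0.995). Rbm19 fell by 0.96 in RANKL and rose by 1.04 in RANKL+CSRM617, and Pcsk5 fell by 1.25 and rose by 1.32, smaller changes than those of Lyz1. With GC offsets Rbm19 rose by 0.66 in RANKL+CSRM617. Of the other listed genes Defa30 ranked 45, Itln1 194, Ang4 253, Defa29 355, Defa24 357 and Habp2 672, and Mmp7 had a correlation of -0.868 with Lyz1.

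The genes most like Mmp7 were Serpinb6b, a serine protease inhibitor (0.995), BC022960 (0.994), Ddo, D-aspartate oxidase (0.994), Gm42842 (0.993) and Arl4c, a small GTPase (0.991). Arl4c rose by 2.05 in RANKL and fell by 0.91 in RANKL+CSRM617 (edgeR adjusted p = 4.68e-09 and 1.76e-14). BC022960 rose by 4.92 in RANKL and fell by 2.19 in RANKL+CSRM617, or by 2.49 and -1.45 with limma, and Gm42842 rose by 1.73 and fell by 0.88, which was not called with GC offsets (-0.15, adjusted p = 0.428). Serpinb6b was nearly absent from the controls, with 110, 139 and 136 counts in RANKL libraries against 1, 0 and 1 in ENR control libraries, and 115, 138 and 144 counts in RANKL+CSRM617 libraries against 492, 516 and 675 in RANKL II libraries. None of the 9 other Paneth genes correlated positively with Mmp7, their values lying between -0.947 (Habp2) and -0.749 (Ang4).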

How the data were processed

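RNA-seq was read as 42-bp pairs after ribosomal RNA depletion, per the labels' protocols. The authors deposited 2 tables of raw counts per gene symbol and 2 normalized tables with values found to be on a log2 scale, with 17442 and 18531 entries. The submitters' processing notes name STAR, HTSeq 0.13.5, DESeq2 1.34.0 and mm10 (GRCm38). The annotation, the strand setting and the handling of reads with several matches are named in none of the sources used here. The 2 comparisons were fitted apart, each on its own table.

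From the counts, edgeR 4.0.16 in R 4.3.3 (TMM, filterByExpr, robust quasi-likelihood, Benjamini-Hochberg adjusted p under 0.05 over all genes tested) gave fold changes, and CPM were scaled by TMM. The SE of a log2 fold change was its unshrunken estimate divided by the root of F. DESeq2 1.42.0, limma 3.58.1, other scaling, filters, GC offsets, a replicate block and leaving out each library were alternatives. On simulated counts with 100 changes of each size, 92 and 95 changes of 2-fold and 99 and 100 of 4-fold were recovered in the RANKL and CSRM617 comparisons. GENCODE M21 (GRCm38) supplied coordinates, lengths, GC content and transcripts, matching 53647 of 55335 entries.

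The 10 genes and all lists were chosen with earlier results of these data known. Named by rule were the 10 genes, tested Defa entries, the transcription factors of the regulator list, up to 4 members per other list with the smallest p, and the 5 genes most like Lyz1 and Mmp7.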

Additional observations from a re-analysis of the deposited data

How the results depend on the processing

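The 10 genes kept their direction and call in all 140 values from 14 alternatives in the RANKL comparison and all 150 from 15 in the CSRM617 comparison, with a largest adjusted p of 0.00162 (Ang4) and 2.22e-06 (Habp2). Lyz1 ranged from -1.998 to -1.63 in RANKL against ENR control and from 1.81 to 2.04 in RANKL+CSRM617 against RANKL II, Mmp7 from 1.93 to 2.28 and from -0.95 to -0.83. Called counts over all genes ranged from 3362 to 4412 higher and 3209 to 4068 lower in RANKL, and from 4322 to 5406 higher and 4107 to 5385 lower in RANKL+CSRM617. The labels number the experiments but do not say that equal numbers were run together, and deviations of same-numbered libraries correlated at -0.011 to 0.057, so the replicate block is an alternative. With it Lyz1 was -1.83 and 1.93, and Tcf7l2 was called in RANKL at 0.21 (adjusted p = 0.0424). Values that changed sign with a call in either fit were all in RANKL+CSRM617 against RANKL II, with GC offsets alone and with the replicate block: Spdef -0.036 and -0.039, Xbp1 -0.124 and -0.123, Hes1 -0.167 and -0.168, Mmp15 -0.346 in both, and Mmp14 -0.001 without the block. Uncalled values that changed sign under some setting were those of Dll1, Dll4, Egf, Foxa2, Mptx1 and Wnt3 in RANKL, and Foxa2, Gfi1, Neurog3 and Nod2 in RANKL+CSRM617. Among the other named genes 12 of 546 values lost and 8 gained a call in RANKL, and 17 and 8 of 599 in RANKL+CSRM617; the cause was not tested. Alpha-defensin entries beyond the listed ones that were called numbered 1 lower in RANKL and 2 higher in RANKL+CSRM617, but 3 and 5 with DESeq2, 4 and 6 with no filter on low counts or with limma on the log2 tables, and 4 in RANKL+CSRM617 with replicates 1 and 2 summed. The added entries had failed the main filter on low counts, so these larger counts add no support for a change of the family.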

Other observations

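Matrix metalloproteinases and their inhibitors, the Timp genes, make up 27 entries, Mmp7 among them. Of these 10 passed the filter in the RANKL comparison, and 9, with Mmp7, rose, with a median log2 fold change of 1.51, where 28.7% of all genes tested rose. Among the 9, Mmp11, Mmp17, Mmp20 and Timp3 passed only through the RANKL libraries, where they were higher. Their rises therefore add no support for a rise of the family. Mmp20, known as enamelysin from tooth enamel, rose by 5.23 (SE 0.232, edgeR adjusted p = 3.96e-11), to 29.2 ± 2.39 CPM in RANKL, against 0.758 ± 0.356 CPM in ENR control. Timp3, an inhibitor bound to the extracellular matrix, rose by 3.13 (SE 0.288, adjusted p = 1.95e-07) and the membrane-type protease Mmp15 by 1.58 (adjusted p = 1.01e-09). In RANKL+CSRM617 organoids 11 passed the filter, and 6, with Mmp7, fell and 3 rose against RANKL II, or 7 and 1 with GC offsets, where 36.2% of all genes tested fell and 35.2% rose. Timp3 fell by 2.96 (SE 0.197, adjusted p = 1.23e-17), to 1.23 ± 0.370 CPM in RANKL+CSRM617, against 9.49 ± 0.552 CPM in RANKL II. Timp3, with 14, 10 and 17 counts in RANKL+CSRM617, and Mmp11, with 2, 9 and 10, passed only through RANKL II, where they were higher. Their falls therefore add no support to the count of 6. Mmp20 fell by 1.13 (SE 0.0733, adjusted p = 7.22e-18), or by 0.54 with GC offsets. Mmp15 had a change of 0.08 (adjusted p = 0.0165) and Mmp14, another membrane-type protease, of 0.46 (adjusted p = 6.99e-13), and with GC offsets these were -0.346 and -0.001. With limma on the deposited log2 values Mmp20 rose by 2.76 and Timp3 by 1.67 in RANKL, and Timp3 fell by 1.26 in RANKL+CSRM617.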
